A study of Mus musculus with 7 samples.

Results

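The genes described here are the ligands Tgfb1, Tgfb2, Tgfb3 and Inhba, the receptors Tgfbr1, Tgfbr2 and Tgfbr3, and the feedback genes Smad6, Smad7 and Skil of the transforming growth factor beta (TGF-beta) pathway. They were taken by symbol from the count table, and all 10 of the 10 were found among its 21878 genes and passed the filter on low counts that left 12997 genes for testing. The samples were 7 tumours of B16F10, a pigmented melanoma line of mouse, grown in female mice labelled C57BL/6 in one field and C57BL/6J in another. The 3 control tumours (NC) carried the treatment label control, and the labels used here do not say what these mice were given. The other 4 tumours (titled MBZ, treatment label Zelnorm) came from mice dosed by mouth with Zelnorm at 1.25 mg/kg, once in 2 days, after the grafts could be felt. Tegaserod, sold as Zelnorm, partially activates the serotonin receptor 5-HT4, and what the letters MBZ stand for is not explained, nor can the counts show which drug was given. Ages are missing from the labels, and nothing there ties a library to a mouse of its own, so the p-values below measure only the spread between these samples, which may be technical. Libraries held 16903598 to 19666598 counts. A grafted cell line in a host with an intact immune system gives RNA of tumour cells mixed with RNA of host stroma and leukocytes, and in such bulk samples fewer cells of a type and less RNA per cell cannot be told apart.

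TGF-beta ligands are made as inactive precursors that are stored in the matrix bound to latent TGF-beta binding proteins and are released by integrins, proteases or thrombospondin. The active ligand is gathered by the coreceptor betaglycan, binds the type II receptor, and through it the type I receptor, whose kinase phosphorylates SMAD2 and SMAD3. These enter the nucleus with SMAD4, and among the genes they switch on are the pathway's own brakes, SMAD7, SMAD6 and SnoN. In tumours the pathway is known for restraining T cells and for driving fibroblasts to make matrix.

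No gene of the 10 passed the test between Zelnorm and control tumours, yet for 3 of them all Zelnorm libraries lay above all control libraries: the ligand Tgfb3 (1.23-fold), the type II receptor Tgfbr2 (1.16-fold) and the coreceptor Tgfbr3 (1.44-fold). The major ligand Tgfb1, the type I receptor Tgfbr1 and the feedback gene Skil had log2 fold changes of 0.0044, -0.04 and 0.016. Across all genes the edgeR quasi-likelihood test with Benjamini-Hochberg adjustment called 4 of 12997 (0.0308%) at an adjusted p under 0.05, and of the 10 members it called 0 (lowest adjusted p = 0.268). The 3 genes named first had an unadjusted p under 0.05, all on the higher side, where 10.3% of all tested genes did, 6.94% higher and 3.38% lower. DESeq2, which gave no adjusted p for Inhba, likewise called 0 members after adjustment and found 3 at an unadjusted p under 0.05. The libraries of the groups did not overlap in 3 of 10 members, all higher, and in 9.6% of all tested genes, 5.33% higher and 4.27% lower. The median log2 fold change was 0.11 over the members and 0.00036 over all tested genes, with 7 members above 0 and 3 below.

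Of the sequences at hand, a stretch upstream of Tgfbr2 and one site at Smad6 are shown, the first because it lies before the start of a receptor gene that separated the groups and the second because it holds the palindrome that SMAD proteins are known to bind. RefSeq windows of GRCm38.p6, running from 250 bases before to 50 bases after a start, matched 6 of the 10 members (Tgfb1, Tgfb2, Inhba, Tgfbr1, Tgfbr2 and Smad6) in 7 windows. The start is that of the window's own entry: it is the outer end of the gene for Tgfb1, Tgfbr2 and the first Tgfbr1 window, but lies inside the gene by 26 bases for Smad6, 3708 for Tgfb2, 7595 for Inhba and 32994 for the second Tgfbr1 window. Both sequences below are read 5′ to 3′ on the minus strand, and capitals mark the SMAD palindrome GTCTAGAC or the shorter SMAD motif CAGAC.
Tgfbr2, the 250 bases before the start, chr9:116175364-116175613: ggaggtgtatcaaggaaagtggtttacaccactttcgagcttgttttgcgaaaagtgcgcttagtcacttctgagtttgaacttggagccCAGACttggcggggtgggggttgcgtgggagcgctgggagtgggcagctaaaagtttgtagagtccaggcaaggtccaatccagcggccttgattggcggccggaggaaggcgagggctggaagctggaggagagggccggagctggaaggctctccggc
Smad6, 24 bases around the start, chr9:64022048-64022071: gccaaagtGTCTAGACtggcatat

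The palindrome GTCTAGAC, searched on both strands, occurred in 0.213% of 32851 windows, and among the members' windows only that of Smad6 held it, beginning 4 bases before the start. The shorter motif CAGAC, which the palindrome does not contain, was also searched on both strands and occurred in 49.6% of windows. It was found in the windows of Tgfbr2 (160 bases before the start) and Tgfb2 and in the second window of Tgfbr1. The GC box GGGCGG, the motif of Sp1-like factors, was in 35.7% of windows and in those of Tgfb1, Tgfbr1 and Smad6, whereas the TATA box TATAAA was in 13.6% and in those of Tgfb2 (31 bases before the start) and Inhba. The AP-1 site TGANTCA (7.81% of windows) and the interferon-stimulated response element (3.44%) were in none of the 7. All motifs were searched on both strands, and a match of letters says nothing of whether a factor was bound in these tumours.

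Levels between genes were compared as CPM (counts scaled to library size) per kilobase of exon, using exon lengths of protein-coding transcripts in GENCODE M21. Tgfb1, whose product is the most widely made of the 3 TGF-beta isoforms, stood highest at 32.2 ± 3.37 CPM per kb (SD over 7 libraries). Tgfbr2 followed at 8.61 ± 0.872, Tgfbr1 at 7.45 ± 0.464 and Tgfb3 at 6.25 ± 0.782 CPM per kb, and in this order each of these 3 overlapped its neighbour in range. Skil, at 4.19 ± 0.523, overlapped neither Tgfb3 above it nor Smad7 below it. Smad7 (2.07 ± 0.318), Tgfbr3 (1.61 ± 0.365), Tgfb2 (1.31 ± 0.139) and Smad6 (1.07 ± 0.135 CPM per kb) formed a chain of overlapping ranges. Inhba was lowest at 0.136 ± 0.0708, below every library's value of the gene before it. Thus Tgfb1 was the leading ligand transcript in all 7 libraries, and Tgfb3 exceeded Tgfb2 per kilobase in all 7.

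**Figure D1:**
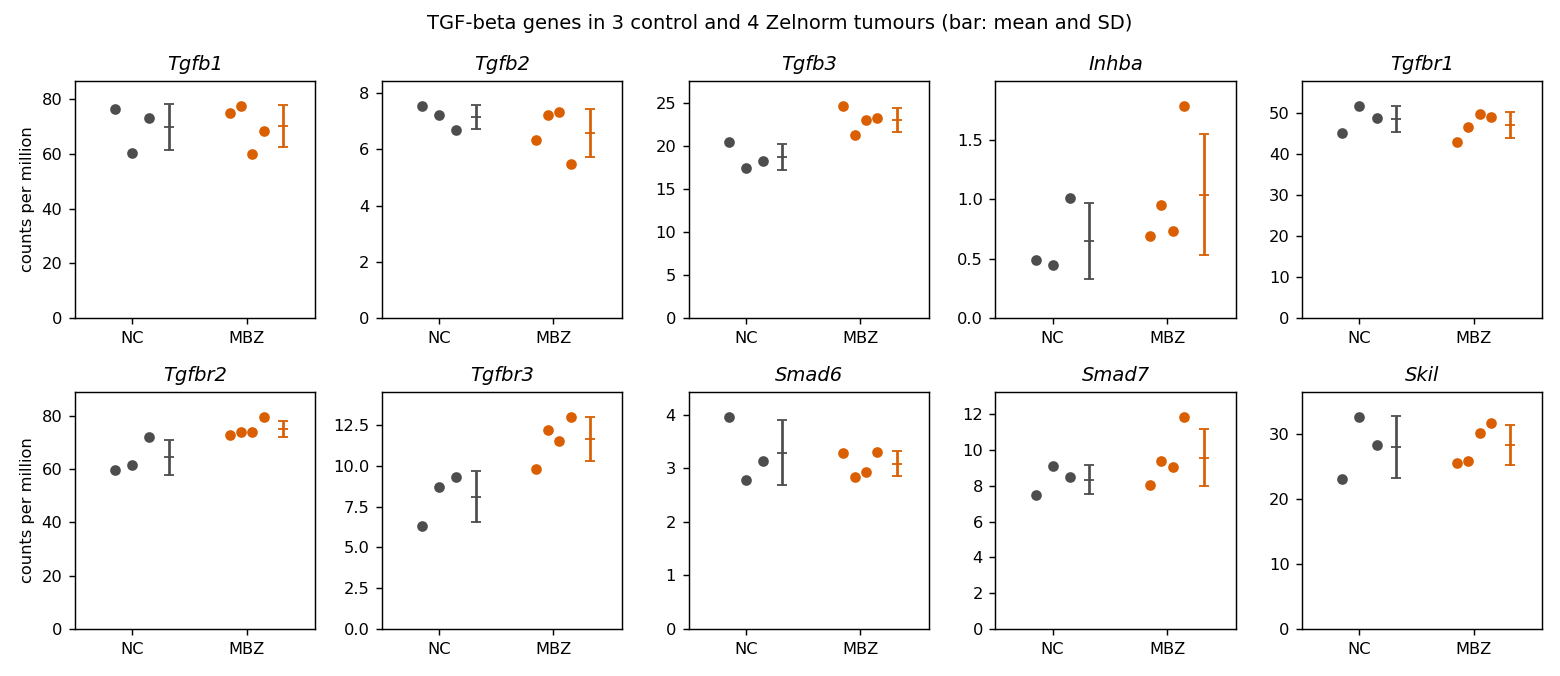
CPM of the 10 genes in each library (vertical axes, each starting at 0), with 3 NC libraries in grey, 4 MBZ (Zelnorm) libraries in orange and bars for mean and SD. Only in the panels of Tgfb3, Tgfbr2 and Tgfbr3 does every orange point lie above every grey one.

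Among the ligands, Tgfb3 (chromosome 12, 86056743 to 86079041, GRCm38) had the only separation. TGF-beta 3 is an isoform best known from palate development and wound repair. Its level was 20.4 CPM in NC_5, 17.4 in NC_6 and 18.3 in NC_10, against 24.6 in MBZ_9, 21.3 in MBZ_11, 23.0 in MBZ_13 and 23.2 in MBZ_15, from 313 to 457 counts per library. The groups did not overlap, but MBZ_11 lay only 0.840 CPM above NC_5. Means were 18.7 ± 1.54 CPM (SD, n = 3) and 23.0 ± 1.36 CPM (SD, n = 4). Its log2 fold change was 0.30 ± 0.09 (SE; 95% interval 0.10 to 0.49; edgeR unadjusted p = 0.00636, adjusted p = 0.268). It was the 308th smallest p of all tested genes, the smallest among the 10. Its unadjusted p stayed under 0.05 in all 16 alternatives computed, while its adjusted p ranged from 0.240 to 0.999.

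Tgfb1 (chromosome 7, 25687002 to 25705077) encodes the isoform that dominates in blood platelets, leukocytes and most tumours. Its level was 76.3 CPM in NC_5, 60.2 in NC_6 and 73.2 in NC_10, and 74.8 in MBZ_9, 77.3 in MBZ_11, 60.1 in MBZ_13 and 68.3 in MBZ_15. The 2 lowest values were 1 library of each group, and the ranges nearly coincided. Means were 69.9 ± 8.52 CPM (n = 3) and 70.1 ± 7.70 CPM (n = 4), with a log2 fold change of 0.0044 and a 95% interval from -0.22 to 0.23 (edgeR adjusted p = 0.993). That interval bounds the ratio of the groups between 0.856 and 1.17. The SD within groups was 12.2% of the mean in NC and 11.0% in Zelnorm tumours, and counting alone would give 2.80%.

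Tgfb2 (chromosome 1, 186622787 to 186709697), the isoform that depends most on betaglycan for binding to the type II receptor, was at 7.53, 7.24 and 6.68 CPM in NC_5, NC_6 and NC_10. In MBZ_9, MBZ_11, MBZ_13 and MBZ_15 it was at 6.33, 7.22, 7.32 and 5.49 CPM. The groups overlapped, and the 2 lowest values were MBZ_15 and MBZ_9. Its log2 fold change was -0.12 ± 0.15 (SE; 95% interval -0.45 to 0.21; edgeR adjusted p = 0.839), from means of 7.15 ± 0.434 and 6.59 ± 0.860 CPM (SD, n = 3 and 4).

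Inhba (chromosome 13, 16004256 to 16031609) encodes the subunit of activin A, a related ligand that signals through its own receptors to the same SMAD2 and SMAD3. It was sparse, with 9, 8 and 20 counts in NC_5, NC_6 and NC_10 and 12, 16, 13 and 35 in MBZ_9, MBZ_11, MBZ_13 and MBZ_15. These correspond to 0.648 ± 0.315 CPM in NC (n = 3) and 1.04 ± 0.507 CPM in Zelnorm tumours (n = 4). NC_10 and MBZ_15 held the 2 highest values, so 1 library of each group stood above the rest. The log2 fold change was 0.67 ± 0.47 (SE) with a 95% interval from -0.37 to 1.71 (edgeR adjusted p = 0.677), the widest of the 10. It was 0.26 without MBZ_15, 0.46 without NC_6 and 1.15 without NC_10, so no size can be given for this gene at this depth.

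The receptors differed from each other in how they stood between the groups. Tgfbr2 (chromosome 9, 116087695 to 116175363), the type II receptor kinase whose upstream sequence is printed above, was at 59.8 CPM in NC_5, 61.5 in NC_6 and 71.9 in NC_10. In the Zelnorm tumours it was at 72.8 (MBZ_9), 73.8 (MBZ_11), 73.9 (MBZ_13) and 79.4 CPM (MBZ_15). Every Zelnorm value was higher, but NC_10 lay 0.928 CPM below MBZ_9. The log2 fold change was 0.22 ± 0.07 (SE; 95% interval 0.05 to 0.38; edgeR unadjusted p = 0.0139, adjusted p = 0.339), from 64.4 ± 6.56 CPM (n = 3) to 75.0 ± 3.00 CPM (n = 4). Without NC_10 it was 0.31 with an adjusted p of 0.0757, the lowest of any member under any alternative (Tgfbr2 range 0.0757 to 0.999). Without NC_5 and without NC_6 its unadjusted edgeR p was 0.0666 and 0.0632.

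Tgfbr3 (chromosome 5, 107106567 to 107289629) encodes betaglycan, the coreceptor that presents TGF-beta 2 in particular and also binds inhibin. Its levels were 6.34, 8.69 and 9.30 CPM in NC_5, NC_6 and NC_10, and 9.84, 12.2, 11.5 and 13.0 CPM in MBZ_9, MBZ_11, MBZ_13 and MBZ_15. All Zelnorm values were above all control values, by as little as 0.533 CPM between NC_10 and MBZ_9. Means were 8.11 ± 1.57 CPM (SD, n = 3) and 11.6 ± 1.34 CPM (SD, n = 4). The log2 fold change of 0.52 ± 0.16 (SE; 95% interval 0.18 to 0.87; edgeR unadjusted p = 0.00714, adjusted p = 0.282) was the largest of the 3 receptors. NC_5 alone set its lower end, and without that library the value was 0.37 with an adjusted p of 0.639 (range over alternatives 0.134 to 0.999).

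Tgfbr1 (chromosome 4, 47353222 to 47414926), the type I receptor kinase that phosphorylates SMAD2 and SMAD3, was at 45.2, 51.7 and 49.0 CPM in NC_5, NC_6 and NC_10. It was at 43.0, 46.7, 49.9 and 49.1 CPM in MBZ_9, MBZ_11, MBZ_13 and MBZ_15, inside much the same range. Its log2 fold change of -0.04 ± 0.07 (SE) had the narrowest interval of the 10, from -0.21 to 0.12 (edgeR adjusted p = 0.890), which limits the ratio of the groups to between 0.867 and 1.09. Means were 48.6 ± 3.24 CPM (n = 3) and 47.2 ± 3.09 CPM (n = 4). Whether the difference of Tgfbr2 or Tgfbr3 between groups was larger than that of Tgfbr1 was not tested.

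**Figure D2:**
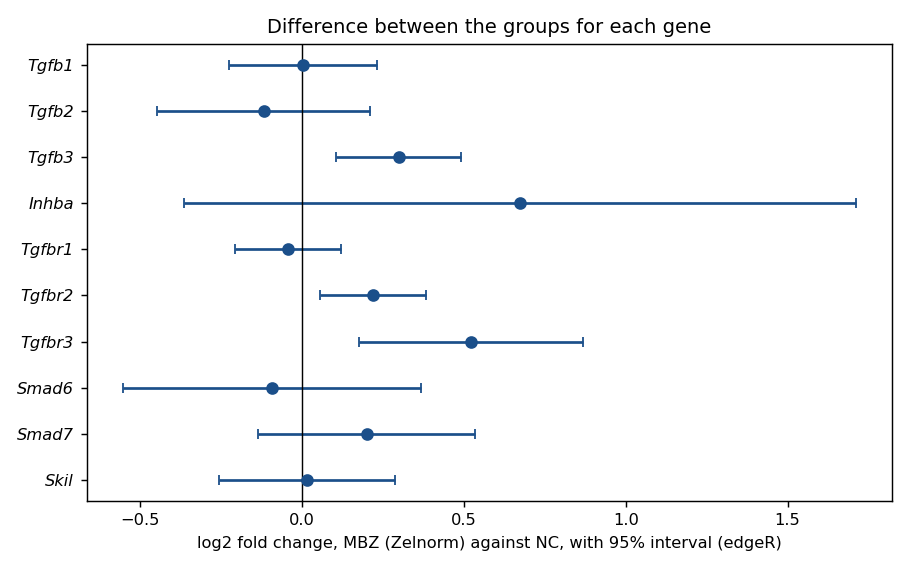
Log2 fold change of each gene in the 4 Zelnorm against the 3 NC libraries (horizontal axis), as a point with its 95% interval from edgeR, not adjusted for the number of genes. The intervals of Tgfb3, Tgfbr2 and Tgfbr3 lie above 0, that of Inhba is the widest, and that of Tgfbr1 is the narrowest.

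The feedback genes, which SMAD signalling itself induces in many cell types, overlapped between the groups. Smad7 (chromosome 18), the inhibitory SMAD that blocks the type I receptor and brings ubiquitin ligases to it, was at 7.47, 9.08 and 8.50 CPM in NC_5, NC_6 and NC_10 and at 8.05, 9.36, 9.06 and 11.8 CPM in MBZ_9, MBZ_11, MBZ_13 and MBZ_15. MBZ_15 stood above the other 6 libraries, which lay together. This gave a log2 fold change of 0.20 ± 0.15 (SE; 95% interval -0.14 to 0.54; edgeR adjusted p = 0.713), and without MBZ_15 it was 0.075, and 0.13 without NC_5. Means were 8.35 ± 0.812 CPM (SD, n = 3) and 9.58 ± 1.61 CPM (SD, n = 4).

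Smad6 (chromosome 9, 63953076 to 64022085) encodes the inhibitory SMAD that acts mainly on the bone morphogenetic protein (BMP) branch, and its start holds the SMAD palindrome shown above. Its levels were 3.95, 2.78 and 3.14 CPM in NC_5, NC_6 and NC_10, and 3.28, 2.84, 2.93 and 3.30 CPM in MBZ_9, MBZ_11, MBZ_13 and MBZ_15. All 4 Zelnorm values fell within the range of the controls. With 48 to 73 counts per library, counting alone gives an SD of 13.1% of the mean, against 18.2% seen in NC and 7.68% in Zelnorm tumours. Between groups the log2 fold change was -0.09 ± 0.21 (SE; 95% interval -0.55 to 0.37; edgeR adjusted p = 0.924), and without NC_5 it was 0.060, the opposite sign.

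Skil (chromosome 3, 31095058 to 31122923) encodes SnoN, a corepressor that holds SMAD complexes silent and is itself induced by TGF-beta. It was at 23.1, 32.5 and 28.3 CPM in NC_5, NC_6 and NC_10, and at 25.4, 25.8, 30.1 and 31.7 CPM in MBZ_9, MBZ_11, MBZ_13 and MBZ_15. Both the lowest and the highest library were controls. The log2 fold change was 0.016 ± 0.12 (SE; 95% interval -0.25 to 0.29; edgeR adjusted p = 0.974), from 28.0 ± 4.73 CPM (n = 3) and 28.3 ± 3.12 CPM (n = 4).

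Single libraries shaped several of these values. MBZ_15 held the highest level of 4 members (Inhba, Tgfbr2, Tgfbr3 and Smad7), and NC_5 held the lowest level of 4 (Tgfbr2, Tgfbr3, Smad7 and Skil). Leaving out NC_5 moved Tgfbr3 from 0.52 to 0.37 and Skil from 0.016 to -0.10. Tgfb3 moved least in proportion among the 3 separated genes, between 0.24 and 0.37, while Tgfbr2 ran from 0.17 to 0.31 and Tgfbr3 from 0.37 to 0.63.

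**Figure D3:**
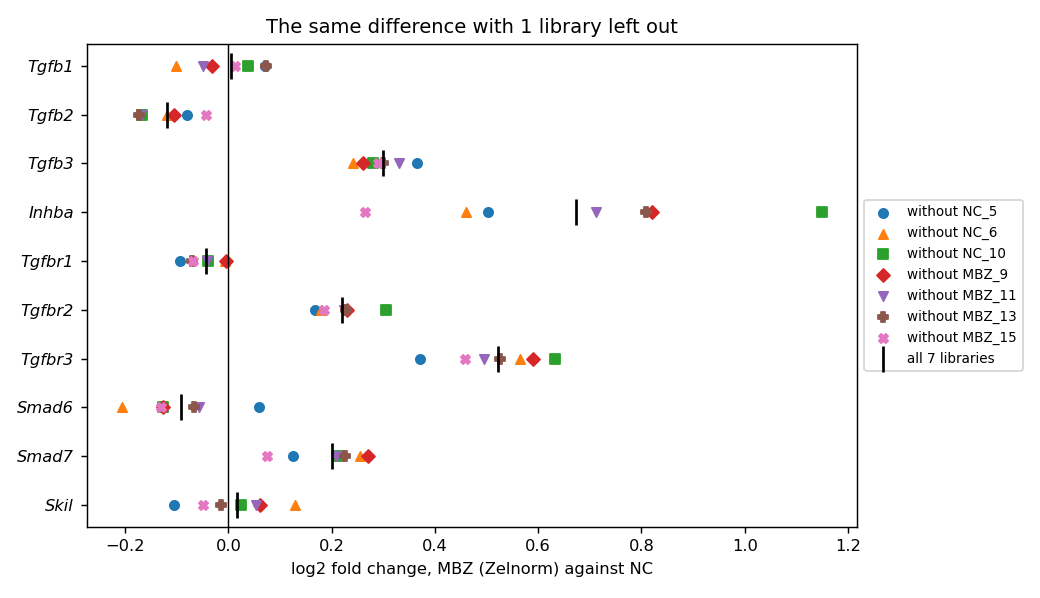
Log2 fold change of each gene in Zelnorm against NC tumours (horizontal axis) with all 7 libraries (black bar) and with each library left out (coloured symbols). Tgfb3, Tgfbr2, Tgfbr3, Smad7 and Inhba stay above 0 throughout, whereas Tgfb1, Smad6 and Skil have symbols on both sides.

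The other genes of the pathway were taken from 7 lists of 103 genes, of which 81 could be tested. None passed the adjusted edgeR threshold (lowest adjusted p = 0.227). At an unadjusted p under 0.05, 14 were higher and 2 lower in the Zelnorm tumours, 19.8% of those tested against 10.3% of all genes, and 9 (11.1%) did not overlap between the groups, 7 upward and 2 downward, which is near the 9.6% of all genes. Limma voom also called none, with 15 of 81 higher at an unadjusted p under 0.05 (18.5%, against 7.06% of all genes). DESeq2, which gave a fold change for 101 of these genes, called 1 (Bhlhe40; 0.99%, against 1.22% of all genes). These shares count every gene with a fold change, with or without an adjusted p. At an unadjusted DESeq2 p under 0.05, 13 were higher (12.9%, against 4.92% of all genes). In edgeR the median log2 fold change of the 81 genes was 0.12. These counts rested on few libraries, and the counts over all genes moved with them. Without NC_10 edgeR called 8 of 81 (9.88%; Ltbp2, Fbn1, Col1a1, Col1a2, Col3a1, Fn1, Tagln and Postn, most of them matrix genes), against 1.23% of all genes. On the higher side at an unadjusted p under 0.05 were 24 without NC_10 (29.6%, against 8.37% of all genes), 7 without NC_5 (8.54% against 5.06%) and 8 without NC_6 (9.64% against 5.99%). Without NC_5, MBZ_11 and MBZ_15, the libraries richest in muscle transcripts, 1 was left there (1.22% against 2.83%).

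Genes of latency and activation, listed for links to the storing or release of the ligand, had the most uniform direction. All 14 tested genes had a log2 fold change above 0 (median 0.19), where 50.15% of all tested genes did. Above 0 were 12 of 14 without NC_6, and 11 of 14 without the 3 muscle-rich libraries. Of the 14, 5 had an unadjusted edgeR p under 0.05. None of the 14 separated the groups, where 9.6% of all tested genes did. Their list's summed level was 1071 to 1166 CPM in NC and 1218 to 1310 CPM in Zelnorm libraries. Thbs1, thrombospondin 1, an activator of latent TGF-beta, had 44.6 ± 8.46 CPM in NC (n = 3) and 69.0 ± 16.4 CPM in Zelnorm tumours (n = 4), a log2 fold change of 0.63 ± 0.18 (SE). Ltbp2 and Ltbp4, of the family named latent TGF-beta binding proteins, had 0.84 ± 0.26 and 0.45 ± 0.17. Fbn1, which encodes the microfibril protein fibrillin 1, had 0.74 ± 0.23. Each of these 4 overlapped between the groups in at least 1 library, and their adjusted p ran from 0.248 to 0.392. Itgb6 and Itgb8, subunits of the integrins best known for activating TGF-beta, were at or near 0, with at most 2 and 6 counts in any library.

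Target genes lay on both sides. Of 17 tested, 13 were above 0 and 4 below (median 0.35). At an unadjusted edgeR p under 0.05, 3 were higher and 2 lower (9 higher without NC_10, 1 without NC_5 and 0 without NC_6). Of all tested genes, 6.94% were higher and 3.38% lower at that p. The higher share of all genes was 8.37% without NC_10, 5.06% without NC_5 and 5.99% without NC_6. The matrix genes Tgfbi (0.67 ± 0.22) and Fn1, fibronectin (0.56 ± 0.20), and the contractile gene Tagln (0.34 ± 0.15) were the 3 on the higher side. Bhlhe40, a transcriptional repressor, separated the groups downward, from 360 ± 7.41 to 303 ± 26.2 CPM (n = 3 and 4), a log2 fold change of -0.25 ± 0.07 (edgeR adjusted p = 0.227), and the cell cycle inhibitor Cdkn1a was at -0.25 ± 0.11. Ctgf, a widely used reporter of the pathway named here after its values were seen, had a log2 fold change of -0.013 ± 0.13 (SE).

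The activin and GDF list had 8 of 16 members tested. Gdf3 (1.16 ± 0.40), and Fst, follistatin, which binds and blocks activin (1.31 ± 0.47), separated the groups upward on 5 to 30 and 3 to 35 counts, and Gdf15 did so with 0.51 ± 0.24. Nodal reached at most 7 counts and Lefty1 at most 4, while Lefty2 and Mstn stayed at 2 counts or fewer. Among 13 other receptors of the family, Bambi, a decoy receptor induced by the pathway, was the only one at an unadjusted edgeR p under 0.05 (14.9 ± 1.46 and 17.8 ± 1.30 CPM, 0.26 ± 0.10, adjusted p = 0.422). The signal-transducing SMADs had log2 fold changes between -0.086 (Smad5) and 0.13 (Smad3), with Smad4 at -0.031 ± 0.06. Smad2 was at -0.065 ± 0.06 and separated the groups downward, with 44.1 to 44.2 CPM in NC and 39.4 to 43.6 CPM in Zelnorm libraries (edgeR adjusted p = 0.779). Of the 14 intracellular regulators, Pmepa1, a TGF-beta-induced inhibitor of SMAD activation, stood alone at an unadjusted p under 0.05 (9.96 ± 1.38 and 12.7 ± 1.33 CPM, 0.34 ± 0.13, adjusted p = 0.400) and separated the groups. In the BMP list, the ligand gene Bmp6 (0.86 ± 0.34) separated the groups upward at low counts, whereas the BMP target genes Id1, Id2 and Id3 had -0.24, 0.16 and 0.18.

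**Figure D4:**
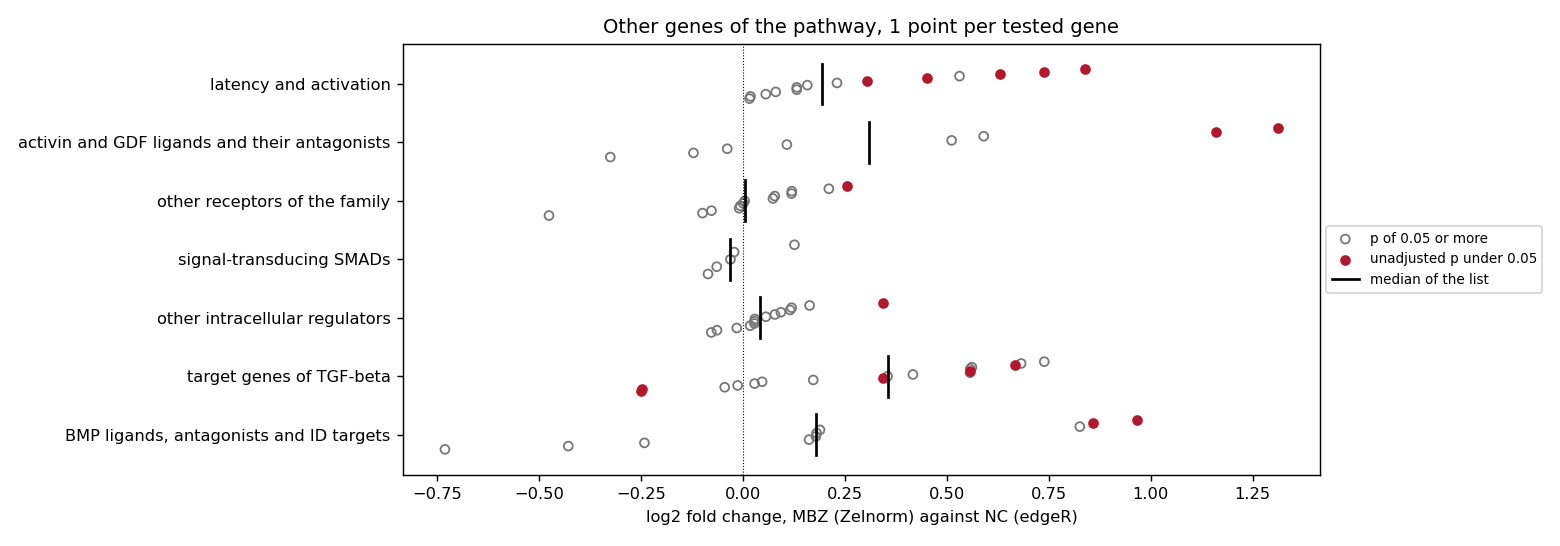
Log2 fold change in Zelnorm against NC tumours (horizontal axis) of the 81 tested pathway genes, 1 point per gene, in 7 lists, filled where the unadjusted edgeR p was under 0.05, with a bar at each list's median. All 14 latency and activation genes lie above 0, and the signal-transducing SMADs lie within 0.13 of 0.

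By a measure of likeness over the 7 libraries (root-mean-square difference of standardised log2 CPM), the gene most like Tgfb3 among 10427 compared was Gkap1, at 0.131, and P2ry2 was also near at 0.296, where the median gene was at 1.33. Nearest to Tgfb1 were Trim3 (0.188), Ccdc51 (0.205) and Rgs14 (0.239), and nearest to Tgfb2 were Coa7 (0.229), Dynlrb1 (0.231) and Map3k11 (0.249). Likeness over 7 libraries is given as a description, since these libraries share the group difference and all sources of spread.

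Of the host-cell marker lists, those of leukocytes, macrophages, fibroblasts, regulatory T cells, skeletal muscle and adipocytes had every tested gene above 0. None of them held a gene past the adjusted edgeR threshold, and their summed levels overlapped between the groups. All 8 pan-leukocyte genes were above 0 in log2 fold change (7 at an unadjusted edgeR p under 0.05, and 3 not overlapping between the groups). Their summed levels were 177 to 265 CPM in NC and 233 to 392 CPM in Zelnorm libraries. The 9 macrophage markers, all above 0, summed to 242 to 489 CPM in NC and 472 to 688 CPM in Zelnorm libraries. Of these, 7 had an unadjusted edgeR p under 0.05. The groups did not overlap in 3 (C1qc, Fcgr1 and Ctss, with the lowest edgeR adjusted p, 0.0946, for Ctss). The 9 fibroblast markers, likewise all above 0, summed to 498 to 1221 and 875 to 1570 CPM. Among them 3 had an unadjusted edgeR p under 0.05, and 4 did not overlap. Of all tested genes, 6.94% were higher at such a p and 5.33% were higher without overlap. Fibroblast sums were highest in MBZ_15 (1570 CPM) and NC_10 (1221 CPM), the libraries with the most Tgfbr2 and Tgfbr3 in their own groups. Most of these sums came from Col1a1 and Col1a2, which reached 839 and 594 CPM in Zelnorm and 636 and 466 CPM in NC libraries. Both are also on the list of TGF-beta target genes, so the sum is not a measure of fibroblasts apart from the pathway. The part of any of these host cell types in the results above was not tested. With NC_10 and MBZ_15 removed, a choice made after their marker levels were seen, Tgfb3, Tgfbr2 and Tgfbr3 had log2 fold changes of 0.28, 0.28 and 0.57. This does not even out the fibroblast transcripts, which in the remaining libraries summed to 498 and 551 CPM in NC and to 875, 999 and 935 CPM in Zelnorm tumours.

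Other admixtures were uneven. Skeletal muscle markers summed to 291 CPM in MBZ_15, 109 in MBZ_11, 34.6 in NC_5 and at most 16.5 in the other 4 libraries. All 7 that could be tested were above 0 (median log2 fold change 2.93), 5 of them at an unadjusted edgeR p under 0.05. Without NC_5, MBZ_11 and MBZ_15, likewise chosen after the marker levels were seen and leaving 2 libraries in each group, Tgfb3 was at 0.41, but Tgfbr2 was at 0.13 and Tgfbr3 at 0.24, with unadjusted edgeR p of 0.243 and 0.202, so that 1 member in place of 3 had an unadjusted p under 0.05. Endothelial markers had 4 genes above 0 and 4 below, 1 of them at an unadjusted edgeR p under 0.05 (160 to 281 CPM in NC, 188 to 227 in Zelnorm libraries). Platelet markers, of which Gp9 and Gp1ba had at most 8 and 4 counts, summed to 4.68 to 24.4 CPM in NC and 6.73 to 19.6 in Zelnorm libraries, with NC_10 highest. Regulatory T cell markers were sparse (5.36 to 7.18 and 6.50 to 11.1 CPM, with Foxp3 at 4 to 19 counts). All 4 that could be tested were above 0, 1 of them at an unadjusted edgeR p under 0.05. All 5 adipocyte markers were above 0, none at an unadjusted edgeR p under 0.05 (29.8 to 89.2 and 30.0 to 147 CPM summed), and of the keratinocyte markers 1 was above and 1 below 0. The melanoma markers, which check the labelled cell line, summed to between 25975 and 30352 CPM in all libraries, led by Tyrp1 at 8732 ± 827 CPM in NC (n = 3) and 9623 ± 483 CPM in Zelnorm tumours (n = 4). Of these 8 genes, Mitf, the regulator of the pigment cell lineage, was the 1 at an unadjusted edgeR p under 0.05, with 378 ± 37.7 CPM in NC and 573 ± 132 CPM in Zelnorm tumours (log2 fold change 0.60 ± 0.16, adjusted p = 0.215).

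**Figure D5:**
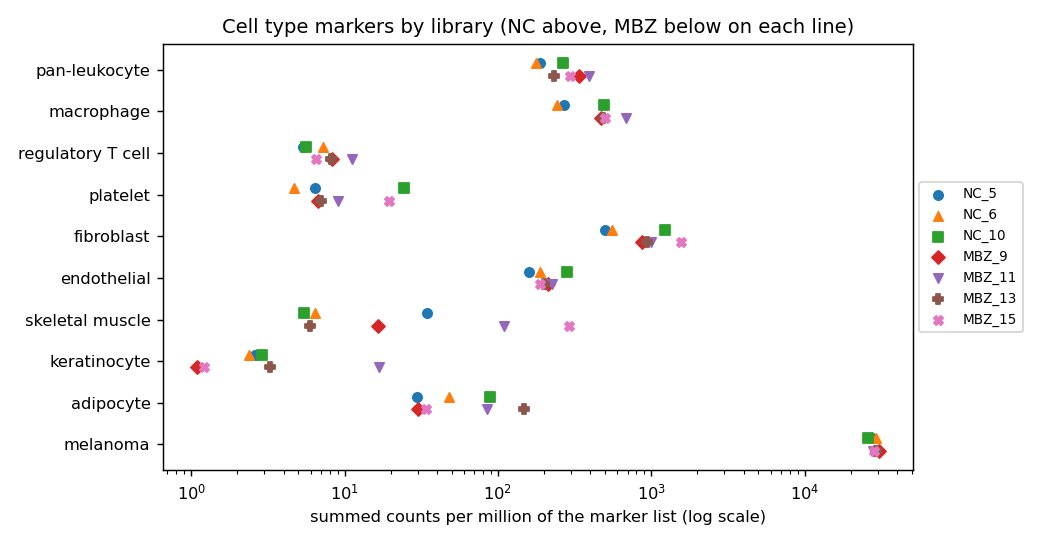
Summed CPM of each marker list in each library (horizontal axis, log scale), with NC libraries above and MBZ (Zelnorm) libraries below on each line. Melanoma markers lie far to the right in all 7 libraries, and skeletal muscle markers run from 5.46 CPM (NC_10) to 291 CPM (MBZ_15).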

How the data were processed

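RNA from 3 NC and 4 Zelnorm tumours was taken up in TRIzol and sequenced from TruSeq Stranded mRNA libraries, per the labels' protocols. The authors deposited raw counts per gene, in a table with a column for each library. HISAT2, HTSeq, Trimmomatic, Cufflinks and DESeq were used, per the submitters' processing notes, with builds GRCm38 and GRCh38 (no versions or order). Strand setting and annotation release: not given in the sources used here, so reads of antisense neighbours cannot be told apart. RefSeq lists no gene overlapping Tgfb1, Tgfb3, Smad6 or Skil. No counts were found for the neighbours that overlap the other members. A neighbour without a row in the count table would look the same, so this cannot show that they are silent. The columns carry the group but none of the titles' replicate numbers.

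Library totals ran from 16903598 to 19666598 counts, and 3 counts, a floor that covers counting error only, equalled 0.152 to 0.178 CPM. No pair of libraries agreed within sampling noise (chi-square per degree of freedom 6.53 to 20.9). Genes were filtered with filterByExpr, scaled by TMM (factors 0.986 to 1.01) and compared with edgeR's quasi-likelihood test (version 4.0.16, R 4.3.3) at 0.05 after Benjamini-Hochberg adjustment over all genes. SE and 95% intervals were derived from the F statistic. CPM are counts over TMM-scaled library size.

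Members and lists were chosen with earlier results of these data known. Named were all members, up to 4 genes of smallest p per list, the genes most like the 3 TGF-beta ligands (mean log2 CPM of at least 2) and leading markers. Cdkn1a, Ctgf, Mitf, further receptors, SMADs and Id genes, the genes called without NC_10 and genes at low counts were added after their values were seen, and a few genes that the rule names are not reported here. Alternatives were RLE and upper-quartile scaling, 2 other filters, a robust fit, limma 3.58.1 voom, DESeq2 1.42.0 and leaving out libraries. The fits were also run on simulated counts. The changes simulated there were larger than those of Tgfb3, Tgfbr2 and Tgfbr3, so that run does not cover changes of their size. Figures were drawn with matplotlib 3.10.9.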

Additional observations from a re-analysis of the deposited data

Results flagged for a closer look

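Within the 4 Zelnorm libraries, 3 of 20 sets of values (10 members and 10 marker sums) had 1 library set apart from the other 3 by more than 0.829 of the whole range, a rule that chance meets in about 1 set of 20. Tgfbr2 was one of them, with MBZ_15 at 79.4 CPM and the other 3 at 72.8 to 73.9 CPM (ratio 0.832), and without MBZ_15 its log2 fold change was 0.19 in place of 0.22. The macrophage marker sum was 688 CPM in MBZ_11 against 472 to 498 CPM in the others (ratio 0.879). The keratinocyte sum was 16.6 CPM in MBZ_11 against 1.09 to 3.26 CPM (ratio 0.860). Within the 4 Zelnorm libraries, MBZ_11 was the lowest for Tgfb3 (21.3 CPM against 23.0 to 24.6 CPM). It was neither the highest nor the lowest of the 4 for Tgfbr2 or Tgfbr3. For Tgfb1 (77.3 CPM) and for the pan-leukocyte sum (392 CPM), MBZ_11 was the highest of all libraries. Whether any member follows these markers was not tested.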

How the results depend on the processing

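With each library left out in turn, and under other scalings, filters and tools, edgeR, limma voom and DESeq2 called 0 of the members after adjustment, and 2 to 3 members had an unadjusted p under 0.05. That count was 1 without NC_5, MBZ_11 and MBZ_15 (chosen after seeing the data). Inhba was left out by the filter of at least 1 CPM in at least 4 libraries, and DESeq2 gave it no adjusted p. Tgfb3, Tgfbr2 and Tgfbr3 stayed above 0 in all 16 alternatives. Tgfb1, close to 0, had a log2 fold change of -0.0017 with RLE scaling, -0.0023 without a filter and -0.0039 with DESeq2. With 1 library left out it ran from -0.10 to 0.072, Skil from -0.10 to 0.13 and Smad6 from -0.21 to 0.060. Without NC_5, MBZ_11 and MBZ_15, Inhba was at -0.052, Skil at -0.14, Smad6 at 0.061 and Smad7 at -0.043, and without NC_10 and MBZ_15 (also chosen after seeing the data) Skil was at -0.035. Over all genes, 4 calls became 34 without a filter, 21 in the robust fit and 206 with DESeq2. With 1 library left out they ran from 0 (without NC_5, where 977 genes had an unadjusted p under 0.05) to 161 (without NC_10), with 21 without MBZ_15. They numbered 0 without NC_5, MBZ_11 and MBZ_15 (547 at an unadjusted p under 0.05) and 251 without NC_10 and MBZ_15. The cause of these shifts was not tested. Depth limits Inhba and Smad6 most, whose counting error alone is 24.9% and 13.1% of the mean. No paired analysis was possible because the column names hold no replicate number found in the titles.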
